A study of Mus musculus with 50 samples.

Results

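The 10 genes described here encode transcription factors that pattern the midbrain, the hindbrain and the dorsal and intermediate neural tube: En1, En2, Pax3, Pax7, Gata3, Tfap2a, Tfap2b, Dbx1, Evx2 and Meis1. They were chosen by symbol, and all 10 were present among the 11708 genes of the count table. The list was drawn up with results of these libraries already known, and the rule does not record which comparison was looked at. The values and p-values below therefore describe genes picked with results in view, and no count of them is read as evidence about the set. RNA was sequenced from whole brains of E13.5 mouse embryos of strain FVB/ANTJ, in 6 groups of 3 libraries. In the gtf2i arm the genotypes were wt, gtf2i (the mutant name given once, read as 1 mutant allele) and gtf2i/gtf2i, and in the ird1 arm they were wt, ird1 and ird1/ird1. Gtf2i and Gtf2ird1 encode related DNA-binding factors whose human counterparts lie in the region deleted in Williams syndrome. The labels used here do not say what kind of allele each mutation is or the sex of the embryos, and 32 chromatin samples of the series were not analysed here.

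In the embryonic neural tube, position along the head-to-tail and back-to-belly axes is recorded by combinations of transcription factors. En1 and En2 are homeodomain factors of the midbrain and the midbrain-hindbrain boundary, and are needed for midbrain and cerebellum development. Pax3 and Pax7 are paired-box factors of dorsal progenitors, and both mark the dorsal midbrain. Dbx1 is a homeodomain factor of progenitors at an intermediate dorsoventral level, which give rise to interneurons that express Evx genes, among them Evx2. Gata3 is a zinc-finger factor of GABAergic and serotonergic neurons of the midbrain and hindbrain. Tfap2a and Tfap2b encode AP-2 factors, known for neural crest and for neurons of the dorsal hindbrain and midbrain. Meis1 is a TALE homeodomain factor that binds DNA together with Pbx and Hox proteins.

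Total counts ran from 3239117 to 7371483 per library. Levels are given as CPM, counts scaled to a common library total after TMM normalization. The counts of the 10 genes ran from 15 to 1408 per library. Markers of brain tissue were present in every library: the neuronal tubulin Tubb3 at 1850 to 2570 CPM and the progenitor factor Sox2 at 152 to 213 CPM. Whole-brain RNA carries no position, so the regional label of the genes could not be checked against place of expression. Gtf2i itself was at 598 to 658 CPM in wt, 363 to 375 CPM in gtf2i, and lowest in gtf2i/gtf2i, at 81.8 to 83.3 CPM, in the direction of its labels. Gtf2ird1 RNA was at 90.4 to 114 CPM in wt of the ird1 arm, 147 to 151 CPM in ird1 and 219 to 227 CPM in ird1/ird1, so its level separated the genotypes by being higher with more mutant alleles. It was also at 245 to 286 CPM in gtf2i/gtf2i, against 84.1 to 97.9 CPM in that arm's wt. Nothing in the labels says that the embryos of a group came from separate litters, and p-values measure only the spread between these samples. The number that begins each sample title was 11610 or 11902 throughout the ird1 arm, so libraries within each of its groups share a number. In the gtf2i arm the libraries of a group had different numbers. What the number stands for is not stated.

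The stretches of DNA just before the start sites of Dbx1, Evx2 and Gata3 are shown because Dbx1 passed the test in the gtf2i arm, Evx2 had the largest fold change in the ird1 arm, and the Gata3 stretch held 3 AP-2 matches. They are the 250 bases before the RefSeq start on GRCm38.p6, read 5′ to 3′ on the strand of the gene, all of them the minus strand. Capitals mark matches to 4 motifs searched on both strands: GGATTA (a core bound by GTF2IRD1), CACGTG (an E-box), GCCNNNGGC (AP-2) and TGACAG (Meis).
Dbx1: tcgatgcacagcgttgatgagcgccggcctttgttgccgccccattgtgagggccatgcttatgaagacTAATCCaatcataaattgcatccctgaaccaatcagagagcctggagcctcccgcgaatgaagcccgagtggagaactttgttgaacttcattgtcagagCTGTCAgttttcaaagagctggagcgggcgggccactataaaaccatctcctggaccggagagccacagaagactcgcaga
Evx2: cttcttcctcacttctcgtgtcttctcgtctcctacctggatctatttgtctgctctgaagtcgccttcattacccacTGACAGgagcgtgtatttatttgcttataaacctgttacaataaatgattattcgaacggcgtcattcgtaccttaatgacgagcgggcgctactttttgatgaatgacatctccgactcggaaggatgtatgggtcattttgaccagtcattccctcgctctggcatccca
Gata3: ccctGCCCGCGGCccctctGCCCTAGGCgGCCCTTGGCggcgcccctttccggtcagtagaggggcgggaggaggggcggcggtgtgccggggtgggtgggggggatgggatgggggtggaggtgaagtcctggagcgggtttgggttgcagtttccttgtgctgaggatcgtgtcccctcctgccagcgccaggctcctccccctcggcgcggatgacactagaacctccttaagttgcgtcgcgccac
The windows were chr7:49636836-49637085 for Dbx1, chr2:74659558-74659807 for Evx2 and chr2:9878601-9878850 for Gata3. In Dbx1 the capitals are TAATCC, the reverse complement of GGATTA, at 181 to 176 bases before the start and CTGTCA, the reverse complement of TGACAG, at 81 to 76 bases. In Evx2 they are TGACAG at 172 to 167 bases before the start, and in Gata3 they are 3 matches to GCCNNNGGC between 246 and 213 bases. None of the marked matches overlap. GGATTA or its reverse complement stood in 6.25% of 32817 RefSeq promoter windows of this length, CACGTG in 6.02%, GCCNNNGGC in 13.7% and TGACAG in 15.9%. Among the 11746 windows of genes in the count table the shares were 4.8%, 8.29%, 21.1% and 13.4%. Of the 10 genes, 8 had an entry, with 9 windows in all. GGATTA was found only in the window of Dbx1, CACGTG only in that of En1 (which also held TGACAG), and GCCNNNGGC only in that of Gata3, among those 9 windows. A match is a description of letters and not of binding.

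Over all 18 libraries the levels per kilobase of transcript (CPM per kb, mean ± SD) were highest for Dbx1, at 26.2 ± 8.12. En2 followed at 22.8 ± 4.86, Tfap2b at 21.8 ± 5.47, Gata3 at 15.7 ± 2.24 and En1 at 13.3 ± 2.3. Below these came Pax7 at 8.21 ± 1.23, Tfap2a at 6.6 ± 2.03, Meis1 at 6.35 ± 1.13, Pax3 at 5.9 ± 2.25 and Evx2 at 1.56 ± 0.491. The neighbours Dbx1 and En2, En2 and Tfap2b, Pax7 and Tfap2a, Tfap2a and Meis1, and Meis1 and Pax3 differed by less than 1 SD and cannot be ordered. The order also moved with genotype, since in gtf2i the mean of Tfap2b (22.1 CPM per kb) was above that of Dbx1 (19.6), while in gtf2i/gtf2i Dbx1 stood at 41.9 and Tfap2b at 25.9. Evx2 lay at the bottom of the order, below Pax3 in 18 of 18 libraries. The table kept only genes above about 3 CPM in every library, and Evx2, at 3.16 CPM in its lowest library, was close to that limit. The highest of the 18 values was in a gtf2i/gtf2i library for all genes but Meis1, whose highest was in an ird1 library.

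**Figure D1:**
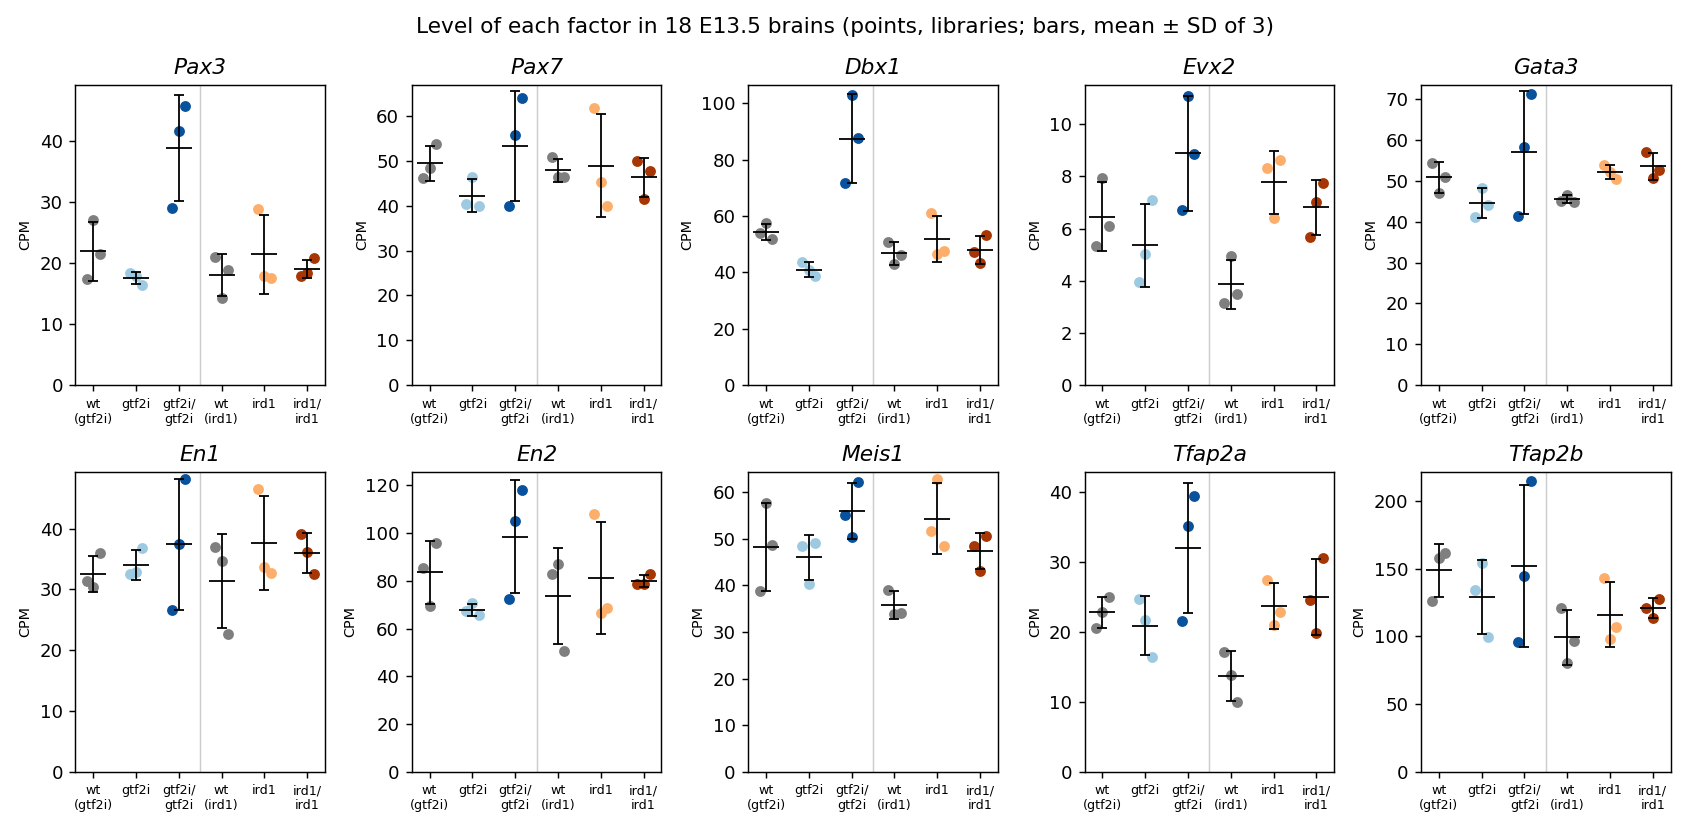
Level of each of the 10 genes in each of 18 libraries (points, CPM on the y axis, each panel on its own scale from 0), by genotype on the x axis, with mean ± SD bars over 3 libraries. Pax3 and Dbx1 stand above wt and gtf2i in all 3 gtf2i/gtf2i libraries, while Tfap2a, Evx2, Meis1 and Gata3 are lower in wt of the ird1 arm than in either mutant group of that arm.

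In gtf2i/gtf2i brains Pax3 and Dbx1 were higher than in wt, by 1.77-fold and 1.6-fold, and the other 8 genes did not pass the test. A gene is said to have passed, or to have been called, at an adjusted p under 0.05 by edgeR's quasi-likelihood test over all 11708 genes. By that rule 0.94% of all genes were called in either direction and 0.41% as higher, beside 2 of the 10 genes, both higher. In whole-brain RNA, more cells of a type and more RNA per cell cannot be told apart.

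Pax3 (ENSMUSG00000004872, chr1:78101267-78197136 on GRCm38.p6), the dorsal progenitor factor, was at 17.3, 27 and 21.4 CPM in the wt libraries and at 29, 41.6 and 45.8 CPM in gtf2i/gtf2i. Every gtf2i/gtf2i value lay above every wt value, although the lowest mutant library was only slightly above the highest wt library. The means were 38.8 ± 8.71 against 21.9 ± 4.85 CPM (SD, n = 3 each), which is 0.82 on the log2 scale (± 0.18 SE, adjusted p of 0.0485 by edgeR). Dbx1 (ENSMUSG00000030507, chr7:49631499-49636835), the intermediate progenitor factor, was at 53.9, 57.4 and 51.8 CPM in wt and at 71.7, 103 and 87.7 CPM in gtf2i/gtf2i. Its groups were well separated, with means of 54.4 ± 2.83 and 87.5 ± 15.8 CPM (SD, n = 3 each). The log2 fold change was 0.68 (± 0.12 SE, adjusted p of 0.0191 by edgeR). Pax3 and Dbx1 were the only 2 of the 10 genes whose gtf2i/gtf2i libraries all lay above those of wt, which held for 7.82% of all genes. Both calls were lost without wt replicate 1 (adjusted p 0.118 for Pax3 and 0.0522 for Dbx1), without wt replicate 3 (0.175 and 0.0952), without gtf2i/gtf2i replicate 2 (0.183 and 0.0969), and with only the compared groups in the fit (0.127 and 0.0696). The log2 fold changes in those 4 fits were 0.68, 0.81, 0.78 and 0.83 for Pax3 and 0.67, 0.65, 0.55 and 0.68 for Dbx1. With the number that begins each title as a block, the adjusted p was 0.0136 for Pax3 and 0.00539 for Dbx1, and 5.33% of all genes were called.

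Pax7, the close relative of Pax3, was at 46.2, 48.5 and 53.9 CPM in wt and at 39.9, 55.9 and 64.1 CPM in gtf2i/gtf2i, so that the mutant libraries lay on both sides of wt. Its log2 fold change was 0.10 (± 0.15 SE, adjusted p of 0.845 by edgeR). The midbrain factors also overlapped between genotypes. En1 was at 31.4, 30.4 and 36 CPM in wt and at 26.6, 37.4 and 48.1 CPM in gtf2i/gtf2i, a log2 fold change of 0.19 (SE 0.17). En2 was at 85.2, 69.5 and 95.7 CPM in wt and at 72.2, 105 and 118 CPM in gtf2i/gtf2i, a log2 fold change of 0.23 (SE 0.16). For both Engrailed genes the first gtf2i/gtf2i library was within or below the wt range and the third was above it.

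Gata3 and the AP-2 genes also spread among the mutant libraries. Gata3 was at 47 to 54.5 CPM in wt and at 41.4, 58.4 and 71.3 CPM in gtf2i/gtf2i (log2 fold change 0.16, SE 0.16). Tfap2b was at 126 to 162 CPM in wt and at 96.2, 145 and 215 CPM in gtf2i/gtf2i (log2 fold change 0.03, SE 0.23), the widest spread of a group in CPM. Its partner Tfap2a was at 20.5 to 25 CPM in wt and at 21.5, 35.1 and 39.4 CPM in gtf2i/gtf2i (log2 fold change 0.48, ± 0.2 SE, adjusted p of 0.296 by edgeR). Here 2 of 3 mutant libraries were above wt and the first lay inside the wt range. Evx2 had a log2 fold change of 0.44 (SE 0.25), with overlapping groups. Meis1, at 55.2, 50.3 and 62.3 CPM in gtf2i/gtf2i and 38.7 to 57.6 CPM in wt, varied less in the mutant than in wt (log2 fold change 0.21, SE 0.14), again with overlap. The median log2 fold change of the 10 genes was 0.22, beside 0 over all genes. A median of that size was not particular to gtf2i/gtf2i. It was 0.21 in ird1/ird1 and 0.21 in ird1 against wt of their arm, each beside 0 over all genes. For wt of the gtf2i arm against wt of the ird1 arm it was 0.22, beside -0.01. Without gtf2i/gtf2i replicate 3 the sign turned for En1 (-0.05), Pax7 (-0.07), Gata3 (-0.04) and Tfap2b (-0.31), none of them called, and it stayed positive for Pax3 (0.68) and Dbx1 (0.68), both still called, in a fit that called 9.9% of all genes.

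**Figure D2:**
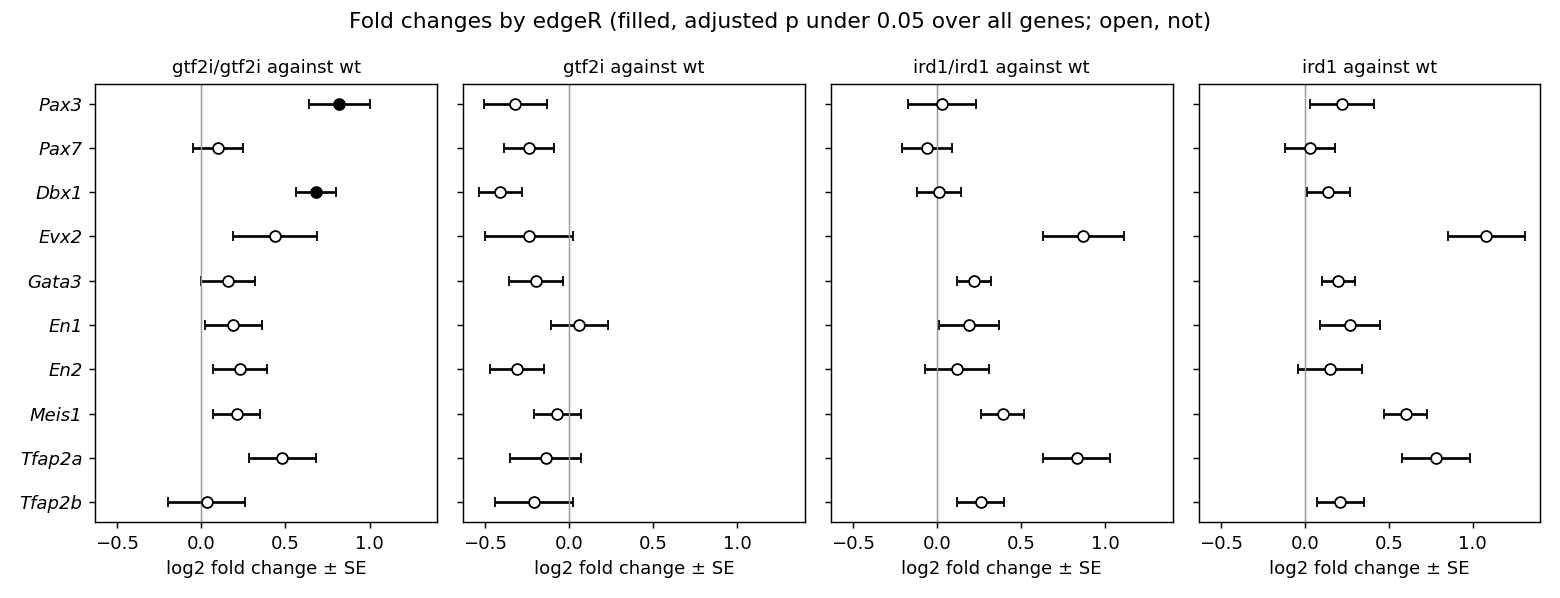
Log2 fold change ± SE of each gene (x axis) against wt of the same arm, 1 panel for each mutant genotype, with filled points for an edgeR adjusted p under 0.05 over all genes. Pax3 and Dbx1 in gtf2i/gtf2i are the only filled points, and Evx2, Tfap2a and Meis1 have the largest values in both ird1 panels.

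The 3 gtf2i/gtf2i libraries differed from each other across the whole set. The mean deviation of the 10 genes from their own 18-library means (log2 CPM) was -0.02 in gtf2i/gtf2i replicate 1, 0.47 in replicate 2 and 0.63 in replicate 3. Replicate 1 was the lowest of its group for 9 of 10 genes and replicate 3 the highest for 8. Even so, Pax3 and Dbx1 in replicate 1 were above every library of the other 2 genotypes of that arm, which was not so for any of the 8 others. In the gtf2i libraries the mean deviation was between -0.19 and -0.12, and in the ird1 arm it ran from -0.45 in wt replicate 3 to 0.3 in ird1 replicate 1.

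**Figure D3:**
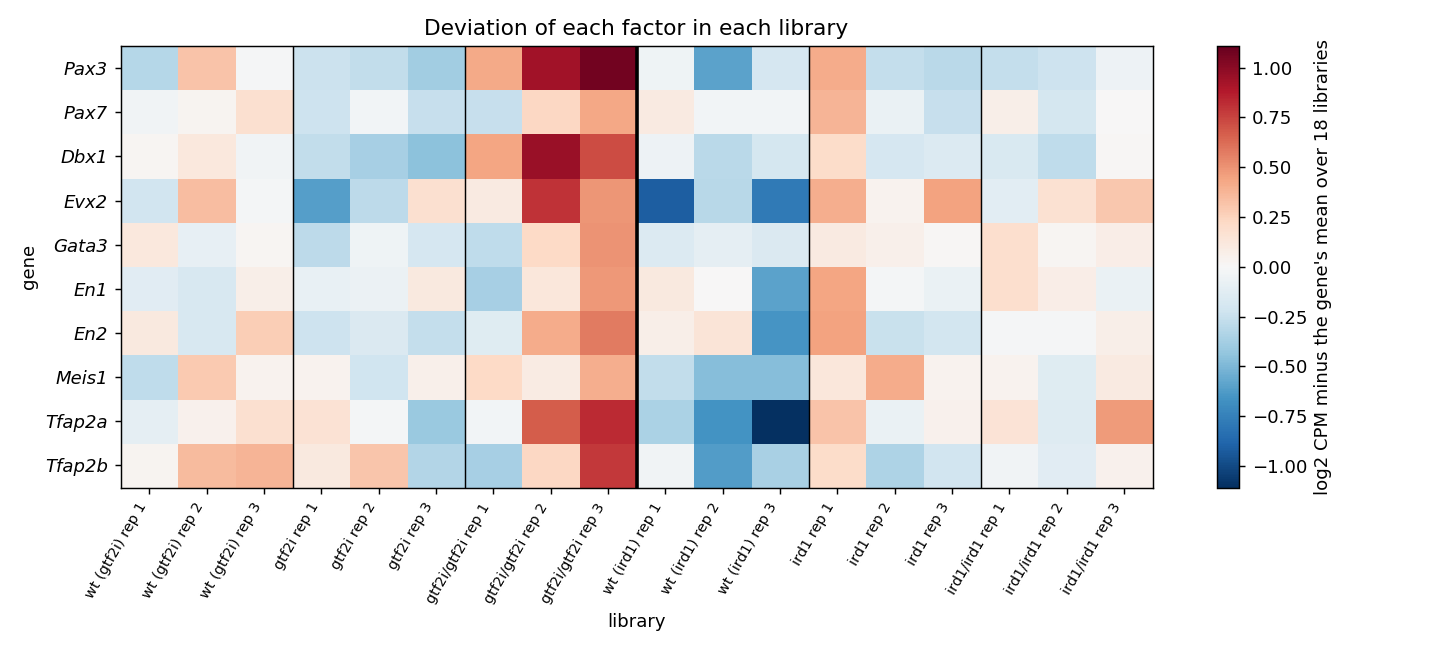
Deviation of each gene (rows) from its own mean over 18 libraries, in log2 CPM, for each library (columns), red for higher and blue for lower, with lines between groups. Replicates 2 and 3 of gtf2i/gtf2i are above the mean for all 10 genes, and wt replicate 3 of the ird1 arm is below it for all 10.

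Markers of other brain regions and cell types moved with these libraries. Of 25 telencephalon genes, all in the table, 9 were called lower and 0 higher in gtf2i/gtf2i against wt, and the median of the 25 was -0.41 (log2 fold change). Over all genes 0.53% were called lower, and the list was chosen with earlier results of these data known. The called genes included Neurod6 (-1.30 ± 0.15 SE, adjusted p of 0.000533 by edgeR) and Neurod2 (-1.25, SE 0.15, adjusted p 0.000762), factors of cortical excitatory neurons, and Nfix (-0.98, SE 0.14, adjusted p 0.00377). The summed level of the 25 genes was 1960 to 2090 CPM in gtf2i/gtf2i, 2520 to 2910 CPM in wt and 2870 to 2950 CPM in gtf2i, so that gtf2i/gtf2i lay below both. It was 2090 CPM in replicate 1, 1970 CPM in replicate 2 and 1960 CPM in replicate 3 of gtf2i/gtf2i. Other sums did differ among these 3 libraries. Diencephalon genes (14 of 17 in the table) summed to 981, 1070 and 1300 CPM in gtf2i/gtf2i replicates 1, 2 and 3, against 1110 to 1160 CPM in wt and 967 to 1050 CPM in gtf2i. Neuron genes (16 of 16) summed to 5600, 5740 and 7420 CPM, against 6730 to 7450 CPM in wt and 6920 to 7110 CPM in gtf2i. Both were highest in replicate 3, the library in which the 10 factors were highest, and lowest in replicate 1, an order that the choroid plexus, red blood cell, radial glia and mesenchyme sums did not have. The part of these sums in the levels of Pax3 and Dbx1 and in the spread of the 10 factors was not tested.

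**Figure D4:**
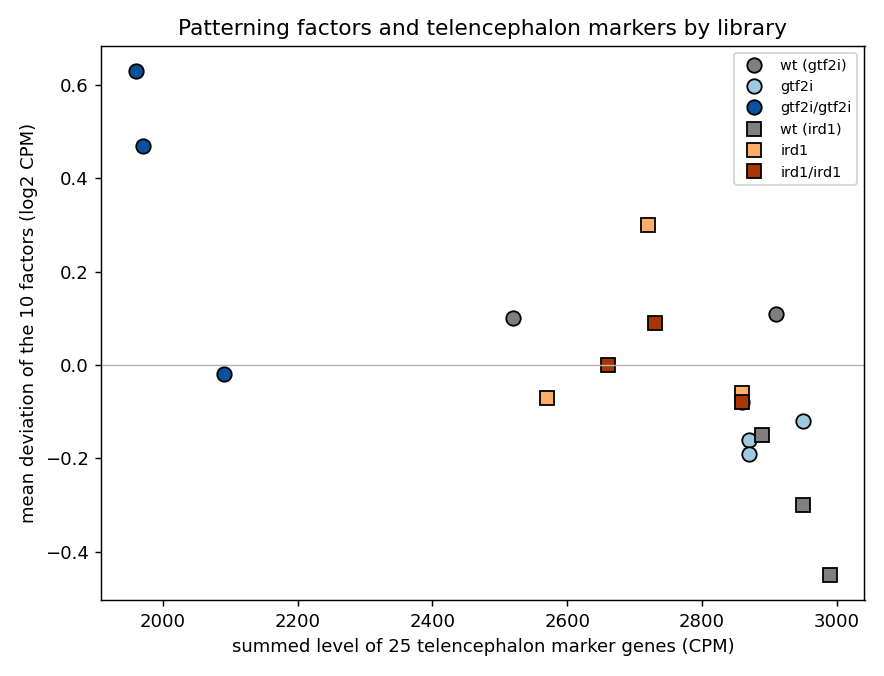
Mean deviation of the 10 genes from their 18-library means (y axis, log2 CPM) against the summed level of 25 telencephalon marker genes (x axis, CPM), 1 point per library, coloured by genotype, circles for the gtf2i arm and squares for the ird1 arm. The 3 gtf2i/gtf2i libraries lie at 1960 to 2090 CPM, below the other 15, while their deviations run from -0.02 to 0.63.

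Choroid plexus genes (7 of 10 in the table) summed to 248 to 280 CPM in gtf2i/gtf2i, below 326 to 417 CPM in wt and 340 to 513 CPM in gtf2i, with no overlap. Of these 7, Ttr, the transthyretin of choroid plexus epithelium, was the 1 gene called, while the list's median log2 fold change against wt was 0.21. Ttr averaged 69 ± 13.1 CPM in gtf2i/gtf2i, 213 ± 37.2 CPM in wt and 267 ± 65.5 CPM in gtf2i (SD, n = 3 each). It fell by 1.63 on the log2 scale against wt (± 0.18 SE, adjusted p of 0.000532 by edgeR) and by 1.95 against gtf2i (SE 0.18, adjusted p 8.77e-05), and was called lower in all 14 alternatives of each. Red blood cell genes (8 of 14 in the table) summed to 5790, 9180 and 6890 CPM in gtf2i/gtf2i replicates 1, 2 and 3, 4090 to 5310 CPM in wt and 3800 to 4200 CPM in gtf2i. Radial glia genes (15 of 15) summed to 4420, 4590 and 3980 CPM in gtf2i/gtf2i and 3320 to 3720 CPM in wt. The red blood cell and radial glia sums were higher in gtf2i/gtf2i with no overlap with wt, and the part of these 3 sums in the results was not tested. For the AP-2 genes and Pax3, which neural crest also expresses, 5 of 12 neural crest and glia genes were in the table, 3 of them Pax3, Tfap2a and Tfap2b themselves. Their sum was 341, 411 and 514 CPM in gtf2i/gtf2i replicates 1, 2 and 3, in the same order as the 10 factors, 3 of which it contains, against 377 to 414 CPM in wt. The defining crest genes Sox10 and Foxd3 did not have a row in the table, and of 13 surface ectoderm genes 0 had one. Mesenchyme and meninges genes (13 of 18) summed to 1540, 1850 and 1160 CPM in gtf2i/gtf2i and 1040 to 1230 CPM in wt, overlapping.

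In gtf2i brains, with the mutant name given once, none of the 10 genes passed the test against wt, and 9 of 10 had a lower mean. By the sign of the log2 fold change, 50.4% of all genes were lower. The signs of En1, Tfap2a and Meis1 changed in fits that left out a library. By edgeR 0.00854% of all genes were called, and 0 of the 10 were called by edgeR or by DESeq2. Dbx1, at 43.7, 40.9 and 38.6 CPM against 53.9, 57.4 and 51.8 CPM in wt, was the 1 gene with an unadjusted p under 0.05, beside 1.6% of all genes. All its gtf2i libraries lay below all wt libraries, which held for 3.79% of all genes. The log2 fold change was -0.41 (SE 0.13, edgeR p 0.0063, adjusted p 1). For Dbx1 the gtf2i group was thus on the opposite side of wt from gtf2i/gtf2i, though only the gtf2i/gtf2i difference was called. Pax3 was at 18.3, 17.8 and 16.4 CPM in gtf2i (log2 fold change -0.32, SE 0.19), inside the wt spread for 2 of 3 libraries. En2, at 65.8 to 70.5 CPM, had a log2 fold change of -0.31 (SE 0.16). The median of the 10 genes was -0.22, beside 0 over all genes.

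Against gtf2i rather than wt, the gtf2i/gtf2i brains had 2.21-fold more Pax3 and 2.12-fold more Dbx1, and these were again the 2 genes called, both higher. Over all genes 3.12% were called and 1.33% were called higher. This comparison shares its gtf2i/gtf2i libraries with the one against wt, so the results are not independent. Pax3 had a log2 fold change of 1.15 (± 0.18 SE, adjusted p of 0.00542 by edgeR) and Dbx1 of 1.09 (SE 0.13, adjusted p 0.000507). Both remained called in all 14 alternatives, with log2 fold changes of 1 to 1.32 for Pax3 and 0.96 to 1.21 for Dbx1. En2 was at 67.2, 70.5 and 65.8 CPM in gtf2i and at 72.2, 105 and 118 CPM in gtf2i/gtf2i, with no overlap. Its log2 fold change was 0.54 (± 0.16 SE, adjusted p of 0.0888 by edgeR). The En2 difference was called with DESeq2 (adjusted p 0.0302) and without gtf2i/gtf2i replicate 1 (0.0145), fits that called 4.3% and 1.14% of all genes, and Tfap2a was called without that library too (log2 fold change 0.84, adjusted p 0.0315, against 0.61 and 0.137 with it). Libraries of gtf2i/gtf2i lay wholly above gtf2i for En2, Pax3, Dbx1 and Meis1, 4 of 10 genes, beside 9.17% of all genes. The median log2 fold change of the 10 was 0.45, beside 0.01 over all genes.

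Genes that act with the 10 factors were read from lists that partly contain them. In gtf2i/gtf2i against wt, the ventral neural tube list (14 of 18 genes in the table) had 2 genes called higher and 0 lower, at a list median of 0.43 (log2 fold change). The called genes were Dbx1 and Nkx6-1, a homeodomain factor of ventral progenitors, which averaged 17.6 ± 1.02 CPM in gtf2i/gtf2i against 8.95 ± 0.114 CPM in wt (SD, n = 3 each). The Nkx6-1 log2 fold change was 0.97 (± 0.14 SE, adjusted p of 0.00609 by edgeR), and it was called in all 14 alternatives. Of the dorsal neural tube and roof plate list (20 of 26 genes) Pax3 was the 1 gene called, and of the midbrain and isthmus list (16 of 21, with En1 and En2) 0 were called by edgeR, 4 having an unadjusted p under 0.05, as had 14.4% of all genes. Their medians were 0.17 and 0.13. Of the AP-2 list (8 of 8) and the Meis, Pbx and Hox list (12 of 25, all Hox genes being without a row) 0 were called, with 3 and 2 genes at an unadjusted p under 0.05, to be read against the same 14.4%. That count was 9 of 14 genes in the ventral list and 4 of 20 in the dorsal list. In the lists described next it was 7 of 16 (GABAergic selectors), 4 of 13 (caudal neurons) and 6 of 16 (cerebellum and rhombic lip).

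Among the partners of Gata3, the list of GABAergic selector genes (16 of 16) had Zfpm1 called higher, a cofactor of GATA proteins, with a log2 fold change of 0.54 (± 0.11 SE, adjusted p of 0.0342 by edgeR). That call was lost without wt replicate 2 (0.52), wt replicate 3 (0.48) or gtf2i/gtf2i replicate 2 (0.50). In the caudal neuron list (13 of 30, with Evx2 and En1) Bhlhe22 was lower by edgeR, with a log2 fold change of -0.73 (SE 0.12, adjusted p 0.0114), a call lost without gtf2i/gtf2i replicate 1 (-0.67) or 2 (-0.70) or wt replicate 3 (-0.62). Bhlhe22 is also expressed in the cortex and stood in the telencephalon list. In the cerebellum and rhombic lip list (16 of 21) Reln, a secreted guide of neuron placement, fell by 0.68 on the log2 scale (± 0.1 SE, adjusted p of 0.00697 by edgeR) and did so in all 14 alternatives. Nhlh2, a helix-loop-helix factor of young neurons, was called higher there by 0.51 (± 0.11 SE, adjusted p of 0.0379 by edgeR), and that call was lost without gtf2i/gtf2i replicate 2 (0.46) or without any 1 of the wt replicates (0.47, 0.54 and 0.52). With only the compared groups in the fit, the calls of Zfpm1 (0.55, adjusted p 0.0939 by edgeR), Bhlhe22 (-0.72, 0.0637) and Nhlh2 (0.51, 0.0947) were lost as well.

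Against gtf2i, where 365 of all genes were called rather than 110, 5 of these 8 lists held more called genes than against wt, and the dorsal, midbrain and AP-2 lists did not. In the ventral list 6 of 14 were higher and 0 lower, the list median being 0.65 (log2 fold change) beside 0.01 over all genes. Besides Dbx1 they were Nkx6-1 (0.96 ± 0.14 SE, adjusted p of 0.00396 by edgeR), Irx3 (0.66), Irx5 (0.64), the floor plate signal Shh (1.20) and Foxa2 (1.00), a floor plate factor. The Shh call was lost without gtf2i replicate 2 (1.14) or gtf2i/gtf2i replicate 2 (1.10), and that of Foxa2 without gtf2i/gtf2i replicate 1 (1.04) or gtf2i replicate 2 (0.88) or 3 (0.99). The Irx5 call was not examined in the alternatives. In the GABAergic selector list 4 of 16 were higher and 0 lower: Tal2 (1.00), Gata2 (0.76), Zfpm1 (0.71) and Tal1 (0.48), while Gata3 itself, at 0.36 (± 0.16 SE, adjusted p of 0.282 by edgeR), was not called. Gata2 lost its call without gtf2i replicate 1 (0.67), 2 (0.79) or 3 (0.84) or gtf2i/gtf2i replicate 2 (0.77), as did Tal1 (0.44, 0.49, 0.52 and 0.49), and Tal2 without gtf2i replicate 3 (0.85). In the same comparison 5 of 8 red blood cell genes were called higher and 0 lower, at a list median of 0.77. The part of red blood cells in the levels of these selector genes was not tested. In the caudal neuron list the LIM factors Lhx1 (0.68) and Lhx5 (0.66) were higher and Bhlhe22 (-0.75) lower. Lhx1 lost its call without gtf2i replicate 2 (0.68) or 3 (0.63) or gtf2i/gtf2i replicate 2 (0.71). Of the midbrain and isthmus list 0 of 16 were called by edgeR, with 6 at an unadjusted p under 0.05, beside 16.5% of all genes.

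In the ird1 arm none of the 10 genes passed the test, and Pax3 and Dbx1 had nearly the same means in wt and ird1/ird1. In ird1/ird1 against wt 0.00854% of all genes were called, and 0 of the 10 by edgeR or DESeq2. In ird1 against wt 0% of all genes and 0 of the 10 were called by edgeR, and 0 of the 10 by DESeq2. Pax3 was at 20.9, 14.2 and 18.9 CPM in wt and 17.9, 18.4 and 20.8 CPM in ird1/ird1, a log2 fold change of 0.03 (SE 0.2). Dbx1 was at 50.9, 43.1 and 46.2 CPM in wt and 47.1, 43.4 and 53.3 CPM in ird1/ird1, a log2 fold change of 0.01 (SE 0.13). The ird1/ird1 range of Pax3 lay within that of wt, and for Dbx1 the ranges overlapped, with 1 ird1/ird1 library above the highest wt library.

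Evx2, Tfap2a, Meis1 and Gata3 had non-overlapping groups in this arm, with both mutant genotypes above wt, although none passed the adjusted threshold. Evx2 was at 3.16, 4.94 and 3.48 CPM in wt, 8.31, 6.39 and 8.62 CPM in ird1, and 5.68, 7.03 and 7.75 CPM in ird1/ird1. These rest on 15 to 21 counts per wt library. Tfap2a was at 17.2, 13.8 and 10 CPM in wt, 27.4, 21 and 22.8 CPM in ird1, and 24.5, 19.9 and 30.6 CPM in ird1/ird1. Meis1 was at 39.1, 33.9 and 34 CPM in wt, 51.6, 62.9 and 48.5 CPM in ird1, and 48.5, 43.1 and 50.5 CPM in ird1/ird1. For all 3 genes the wt libraries were the low ones, and the mutant groups overlapped each other.

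In ird1 against wt the log2 fold changes were 1.08 for Evx2 (SE 0.23, edgeR p 0.000315), 0.78 for Tfap2a (SE 0.2, p 0.00152) and 0.60 for Meis1 (SE 0.13, p 0.000298), each with an adjusted p of 0.997. In ird1/ird1 against wt they were 0.87 for Evx2 (SE 0.24, edgeR p 0.00243), 0.83 for Tfap2a (SE 0.2, p 0.000914) and 0.39 for Meis1 (SE 0.13, p 0.00944), each with an adjusted p of 0.296. Gata3 was at 45.2, 46.7 and 44.8 CPM in wt and at 57.2, 50.8 and 52.6 CPM in ird1/ird1, a smaller difference of 0.22 (SE 0.1, edgeR p 0.0423, adjusted p 0.304). In ird1 it was at 50.6 to 53.9 CPM (0.20, SE 0.1). The 4 genes with ird1/ird1 wholly above wt stood beside 15.1% of all genes with that pattern, and the 4 with ird1 wholly above wt beside 3.14%. Both comparisons use the same 3 wt libraries. Between ird1/ird1 and ird1, 0% of all genes and 0 of the 10 were called by edgeR, 0 had an unadjusted p under 0.05 (4.66% of all genes did) and DESeq2 called 0 of the 10, with log2 fold changes from -0.21 to 0.05.

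The wt libraries of the arms were compared with each other, and none of the 10 genes passed that test. Tfap2a was at 22.8 ± 2.23 CPM in wt of the gtf2i arm and 13.7 ± 3.56 CPM in wt of the ird1 arm (SD, n = 3 each), a log2 difference of 0.72 (± 0.24 SE, adjusted p of 0.0713 by edgeR). Evx2 differed by 0.80 (± 0.28 SE, adjusted p of 0.0766 by edgeR), Meis1 by 0.42 (SE 0.14, 0.0743) and Tfap2b by 0.57 (SE 0.22, 0.0916), all higher in the gtf2i arm. Gata3 differed by 0.16 (SE 0.14, edgeR p 0.256). By edgeR 0% of all genes were called, and the 4 genes Tfap2a, Evx2, Meis1 and Tfap2b had an unadjusted p under 0.05, beside 32.7% of all genes. DESeq2 called Meis1 and 13.3% of all genes. By edgeR Tfap2a was called without wt replicate 1 of the ird1 arm, beside 8.81% of all genes, and Tfap2a, Evx2 and Meis1 without wt replicate 1 of the gtf2i arm, beside 17.7%, so these calls came in fits that called many genes. Wt of the gtf2i arm, at 6.46 ± 1.33 CPM for Evx2 and 48.3 ± 9.47 CPM for Meis1, was close to ird1/ird1 at 6.82 ± 1.05 and 47.4 ± 3.83 CPM (SD, n = 3 each). Arm and any difference in handling cannot be told apart. Neuron genes (16 of 16) summed to 6380 to 6610 CPM in wt of the ird1 arm, 6490 to 7210 CPM in ird1, 6330 to 7240 CPM in ird1/ird1 and 6730 to 7450 CPM in wt of the gtf2i arm. Telencephalon genes (25 of 25) summed to 2890 to 2990 CPM in wt of the ird1 arm, wholly above 2570 to 2860 CPM in ird1 and 2660 to 2860 CPM in ird1/ird1. In wt of the gtf2i arm they summed to 2520 to 2910 CPM. Their median log2 fold change was -0.09 in ird1 and -0.12 in ird1/ird1 against wt, with 0 genes called. The part of the neuron and telencephalon sums in the levels of Evx2, Tfap2a, Meis1 and Gata3 was not tested.

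Whether the homozygous mutants of the arms differed was tested in 1 fit over all 18 libraries, as the gtf2i/gtf2i effect minus the ird1/ird1 effect. None of the 10 genes was called by edgeR or DESeq2, beside 0.171% of all genes by edgeR. Dbx1 differed by 0.66 (SE 0.19, edgeR p 0.00189, adjusted p 0.173) and Pax3 by 0.79 (SE 0.29, p 0.0129, adjusted p 0.275), the only 2 with an unadjusted p under 0.05. Over all genes 13% had an unadjusted p under 0.05. Without gtf2i/gtf2i replicate 3 the Dbx1 difference was called (0.66, adjusted p 0.0477), in a fit that called 6.18% of all genes. Evx2, at -0.43 (SE 0.36), and Tfap2a, at -0.36 (SE 0.32), had values on the side of a larger effect in ird1/ird1, little larger than their errors. A difference between the mutants was therefore not shown for any of the 10 genes.

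Across the 18 libraries the genes varied together to different degrees, and these correlations are descriptions over libraries that share genotype groups and differ in depth. Pearson's r of log2 CPM over the 45 pairs ran from 0.206 to 0.938, with a median of 0.583. The closest pair was Pax3 and Dbx1 at 0.938, and at 0.797 after group means were removed. En1 and En2 had an r of 0.795 (0.899 within groups) and Tfap2a and Tfap2b one of 0.739. Among genes outside the set, the most like Pax3 were Lhx1 (0.889), Nhlh2 (0.882) and Tal2 (0.881). For Dbx1 they were Gm38534 (0.90), Irx2 (0.866) and Rps4l (0.864), of which Rps4l fell to -0.0837 within groups. For En2 they were 3 Iroquois genes, Irx3 (0.849), Irx2 (0.793) and Irx1 (0.759).

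The other genes had closest matches of their own. Fstl4 (0.776) was most like En1, and Shisa3 (0.747) most like Pax7, followed by Pax5 (0.731), a paired-box gene of the midbrain-hindbrain boundary. Gata3 was most like Chrna4 (0.83), a nicotinic receptor subunit, and then Tal1 (0.785), a GATA partner. Tfap2a was most like Ebf1 (0.871), Tfap2b like Zfhx3 (0.931), Evx2 like Gfra1 (0.781) and Meis1 like Sept6 (0.846). An r above 0.5 was common for some genes, being reached with 23.2% of all genes for Tfap2b and 0.949% for Pax7. The closest matches were picked as the highest r over all genes outside the set. Whether any of them exceeds what such picking gives was not tested, so none is read as set apart.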

How the data were processed

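Ribosomal RNA was removed before NEBNext Ultra II library preparation, per the labels' protocols. The authors deposited whole-number read counts per gene for 18 libraries. Trimmomatic, STAR, HTSeq and build mm10 are named in the submitters' processing notes, without versions. The strand setting and annotation are not given in the sources used here, so antisense reads cannot be told apart. The deposited counts had been kept only for genes above 2.9 to 3.09 CPM in every library, so genes silent in any group were not analysed here. The table's transcript length was used for levels per kb.

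Counts were scaled by TMM, filtered with filterByExpr (0 genes removed) and tested with edgeR 4.0.16's quasi-likelihood test in R 4.3.3, with Benjamini-Hochberg adjustment over 11708 genes. Contrasts within an arm used its 9 libraries, and those across arms used all 18. SE is the log2 fold change divided by the square root of F. DESeq2 1.42.0, other scalings, filters, sample sets, a block and leaving out each library were alternatives. The scripts were tested on simulated data. No 2 libraries of a group were repeats of each other (chi-square over degrees of freedom of 2.9 to 29.5). Reads carry no molecular identifiers, so counts give only a lower bound on the error.

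The genes and lists were chosen with earlier results of these data known. Named beside the 10 genes were Gtf2i, Gtf2ird1, up to 5 called genes per list and the 3 most correlated genes. For gtf2i/gtf2i and wt, libraries sharing the number that begins their title had deviations correlated at 0.103, 0.377 and 0.52. However, gtf2i/gtf2i replicate 1 had a higher r with wt replicate 1, of another number (0.203), than with its same-numbered library (0.103). Whether the numbers pair the libraries is thus not settled. The main fits did not use the numbers, and the block was an alternative. Sequences are from RefSeq (GRCm38.p6).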

Additional observations from a re-analysis of the deposited data

How the results depend on the processing

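Of the 10 genes, 2 were called in gtf2i/gtf2i against wt with all libraries and 0 with only the compared groups in the fit, where fewer libraries estimate the spread. Leaving out 1 library at a time gave 0 to 2 called there, 2 to 4 against gtf2i (beside 0.572% to 11.8% of all genes), 0 to 1 for the difference of the homozygote effects and 0 to 3 for wt of the arms. DESeq2 called 1 for wt of the arms, and 1561 genes of all. Over all genes, gtf2i/gtf2i against wt gave 110 calls, 322 with DESeq2, 31 with only the compared groups and 624 with the block. There were 1159 when gtf2i/gtf2i replicate 3 was left out and 28 when wt replicate 3 was. With the replicate block, 2 of the 10 were called in gtf2i/gtf2i against wt, 3 against gtf2i, En2 being added (adjusted p 0.00981 by edgeR) in a fit that called 7.62% of all genes rather than 3.12%, and 0 in each of the other contrasts it was fitted to. Whether the numbers pair the libraries is not settled. The lowest correlation of same-numbered libraries was 0.103 for gtf2i/gtf2i and wt, 0.0576 for gtf2i/gtf2i and gtf2i, and 0.0485 for gtf2i and wt. For gtf2i/gtf2i against wt the block changed no call of the 10 genes. No paired fit was possible for wt of the arms, because the arms share no number. For the 24 results of single genes with an unadjusted p under 0.05, no alternative changed the sign. Of the 56 other gene results, 32 changed sign in at least 1 alternative, 4 of them outside leaving out a library, and 0 were called in any. Counts of 15 to 21 for Evx2 in wt of the ird1 arm limit its precision. The cause of these changes was not tested.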
